A study of Mus musculus with 40 samples.

Results

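In all, 10 genes whose proteins add phosphate to the microtubule protein tau or take it off again were followed in bulk RNA of the left somatomotor cortex. They were the tau kinases Gsk3a, Gsk3b, Dyrk1a, Cdk5, Mark1, Mark2 and Fyn, the Cdk5 activator Cdk5r1, and the phosphatase 2A subunits Ppp2ca and Ppp2r2a. The genes were chosen by name for what their proteins do, and each name matched 1 row of a count table with 55539 features, so all 10 were found. All 10 were among the 15224 features that passed the filter on low counts, with a lowest count of 1169 in any sample used, and values below are in CPM (the count of a gene per 1000000 counts of its library, after TMM scaling).

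All mice were 3xTg-AD females aged 2 to 4 months, on a C57BL/6J background. This line carries transgenes for mutant human APP and mutant human tau, both driven by a promoter active in neurons, together with a mutation knocked into mouse presenilin 1. The sham-injured mice carried these alleles too, so no group here shows the genes in a wild-type brain. Closed head injury (CHI) was a weight dropped on the closed skull once a day under isoflurane, and sham-injured mice were anesthetized without the weight drop and treated as 1 group whatever their number of exposures. The groups held 4 sham samples. After 1xCHI there were 3 samples at 30 min, 3 at 4 h and 4 at 24 h, after 3xCHI there were 3, 2 and 4, and after 5xCHI there were 3, 3 and 4. Mice taken 24 h after 2xCHI (3 samples) and 24 h after 4xCHI (3 samples) stood for the state before the next injury of the series. Sample 30 (3xCHI at 4 h), from an animal that stood apart in protein measurements, was left out, which leaves 39 of 40 samples.

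Tau binds and steadies microtubules in axons, and it lets go when enough of its serines and threonines are phosphorylated. In tauopathies such as Alzheimer's disease, heavily phosphorylated tau leaves the microtubule and gathers in tangles. Glycogen synthase kinase 3, Cdk5 and the MARK kinases are the classic tau kinases, while protein phosphatase 2A carries most of the tau phosphatase activity of the brain. Most of these enzymes are switched by phosphorylation, by partner proteins or by calcium, so an RNA level is not an activity, and no enzyme activity was measured in these files.

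Summed counts per sample ran from 15925995 to 27859530, with a median of 19028763. Neuron markers summed to 6845 to 7236 CPM in sham samples and 4771 to 7792 CPM in injured samples with all 9 of them detected. Striatum markers, which cortex largely lacks, summed to 84.8 to 586 CPM in sham samples and 91.8 to 638 in injured samples, and choroid plexus markers to 5.27 to 18.8 and 2.08 to 2464 CPM. The part of such neighbouring tissue in the results was not tested. Sample 11 (5xCHI at 24 h) stood apart, with the lowest neuron marker sum (4771 CPM) and the highest microglia marker sum (608 CPM, against 254 to 301 CPM in sham samples). The libraries numbered 1 to 18 and those numbered 19 to 40 also differed along the leading axis of variation. The boundary was placed once that axis was known, and no label calls it a batch. Samples 1 to 18 held 1 of 4 sham samples, 6 of 10 after 1xCHI, 0 of 3 after 2xCHI, 5 of 9 after 3xCHI, 0 of 3 after 4xCHI and 6 of 10 after 5xCHI. Every comparison with sham among samples 1 to 18 therefore rests on the single sham library, sample 6, which is assumed to vary like the other groups. In bulk tissue, fewer cells of a type and less RNA per cell cannot be told apart.

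All 10 genes were well expressed, and none was called changed by injury in any of the 18 comparisons made. Per kilobase of the longest annotated transcript, Gsk3a stood highest with 85.4 ± 3.54 CPM per kb (mean ± SD, n = 39) and Cdk5r1 came next with 67.0 ± 8.12. Ppp2ca, the catalytic subunit of the phosphatase, had 47.5 ± 2.93, Cdk5 37.9 ± 4.67 and Fyn 27.8 ± 1.68. Then came Mark1 at 22.8 ± 3.23, Gsk3b at 21.7 ± 4.2, Mark2 at 21.6 ± 1.66 and Ppp2r2a at 20.8 ± 2.13 CPM per kb. Dyrk1a was lowest, at 13.7 ± 1.11. Each gene from Gsk3a to Fyn lay above the next in 37 to 39 of 39 samples, although the ranges of neighbours overlapped. Among the next 4 genes the order was loose on this divisor, with Gsk3b above Mark2 in 19 of 39 samples and Mark2 above Ppp2r2a in 24 of 39. With the length of all exons merged as divisor, Cdk5r1 (67.0) and Gsk3a (66.6 CPM per kb) could not be ordered, Cdk5r1 being the higher in 22 of 39 samples. On that divisor Mark1 had 22.1, Gsk3b 18.3, Ppp2r2a 15.5 and Mark2 12.2 CPM per kb, and Ppp2r2a was above Mark2 in 37 of 39 samples, so the order of these genes depends on the length used.

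**Figure D1:**
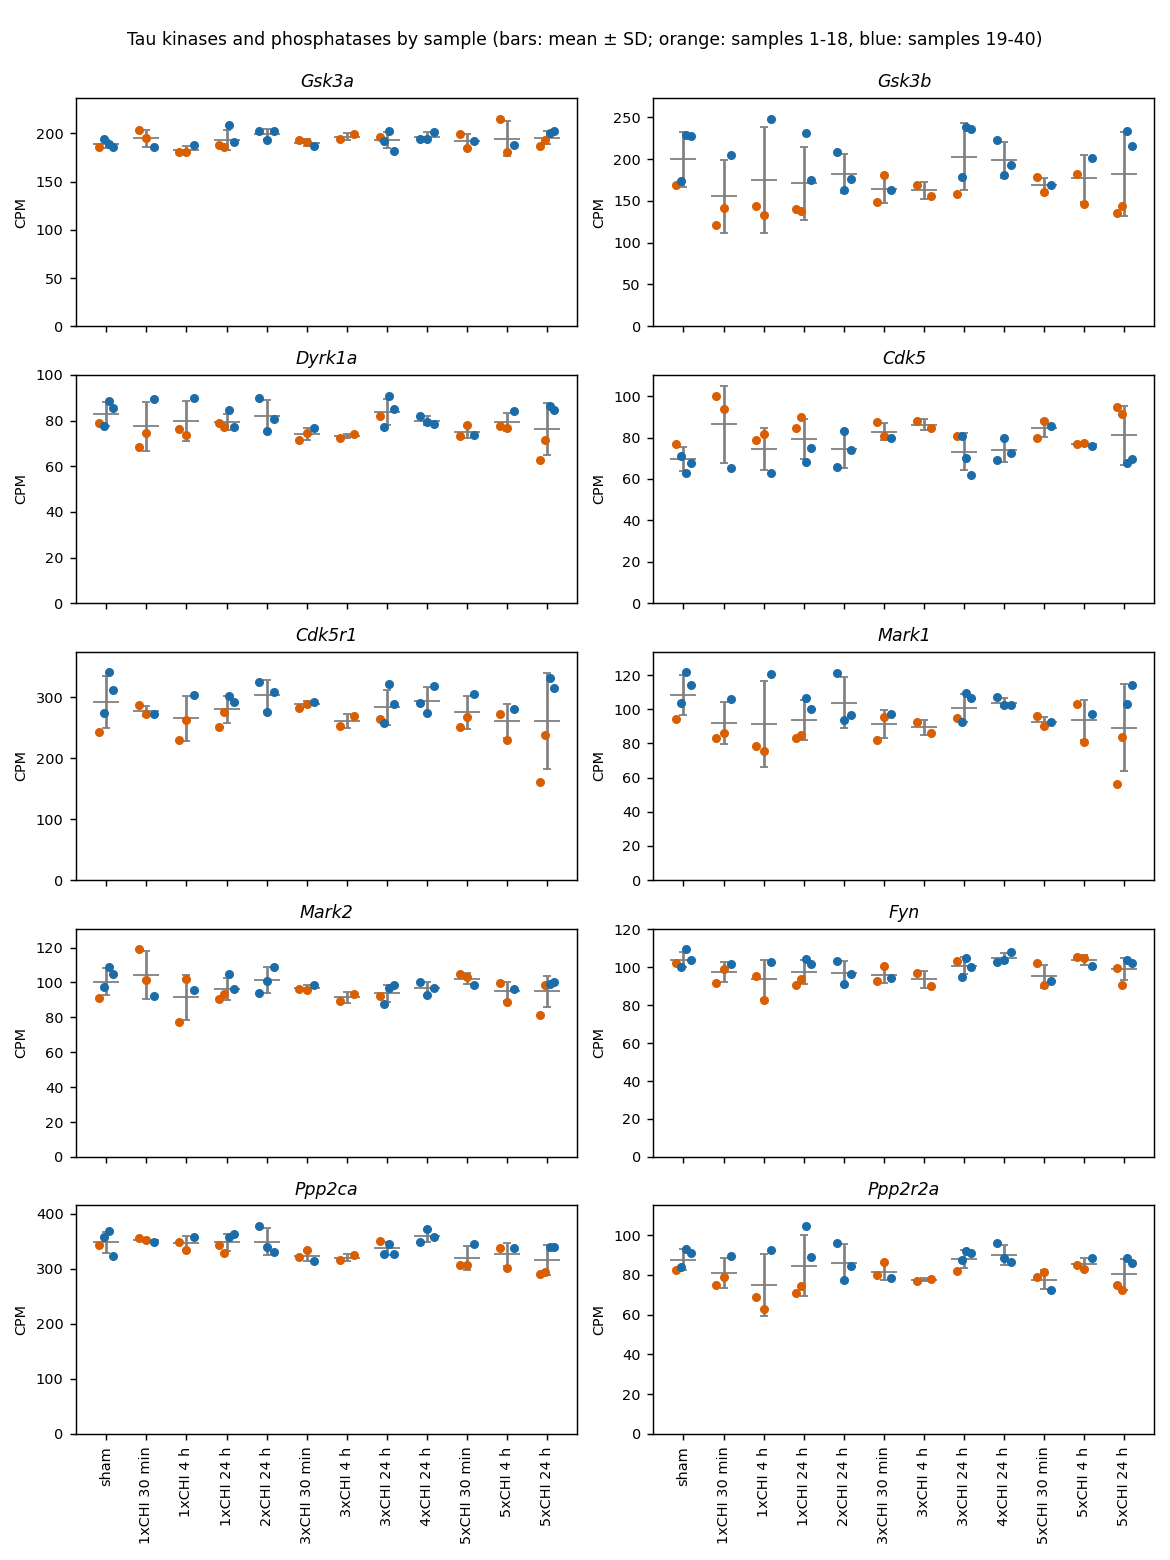
CPM of each gene (y axis, from 0) in every sample of the 12 injury and time groups (x axis); points are samples, orange for numbers 1 to 18 and blue for 19 to 40, and bars are the group mean ± SD. Gsk3a keeps within 181 to 215 CPM, whereas Gsk3b spreads from 121 to 248 CPM with the orange points below the blue in most groups.

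The glycogen synthase kinases are a pair of genes for near relatives, both of which phosphorylate tau and are held off by Akt. Both have a RefSeq promoter window whose start site is that of the annotated gene. These windows, 250 bases before to 50 bases after the start (GRCm38.p6, given 5′ to 3′ on the gene's own strand), are printed with those of Dyrk1a and Mark1 because Gsk3a and Gsk3b had the steadiest and the most variable CPM, and Dyrk1a and Mark1 the most GC boxes and the highest share of G or C. Capitals mark a GC box (GGGCGG) or a CCAAT box (CCAAT) on either strand. The windows lie at chr7:25237802-25238101 (minus strand) for Gsk3a, chr16:38088751-38089050 (plus) for Gsk3b, chr16:94569956-94570255 (plus) for Dyrk1a and chr1:184999500-184999799 (minus) for Mark1.
Gsk3a: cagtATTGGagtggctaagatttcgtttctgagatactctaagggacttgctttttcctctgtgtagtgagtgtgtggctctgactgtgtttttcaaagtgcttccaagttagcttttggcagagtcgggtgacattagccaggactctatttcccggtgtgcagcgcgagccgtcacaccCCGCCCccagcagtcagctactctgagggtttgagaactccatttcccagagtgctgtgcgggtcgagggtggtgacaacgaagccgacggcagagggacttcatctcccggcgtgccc
Gsk3b: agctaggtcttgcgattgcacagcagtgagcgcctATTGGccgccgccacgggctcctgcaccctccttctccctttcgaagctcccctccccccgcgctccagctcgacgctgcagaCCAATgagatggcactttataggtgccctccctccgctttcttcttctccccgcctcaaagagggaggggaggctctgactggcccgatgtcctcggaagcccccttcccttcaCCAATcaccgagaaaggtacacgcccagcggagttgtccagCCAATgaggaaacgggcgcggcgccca
Dyrk1a: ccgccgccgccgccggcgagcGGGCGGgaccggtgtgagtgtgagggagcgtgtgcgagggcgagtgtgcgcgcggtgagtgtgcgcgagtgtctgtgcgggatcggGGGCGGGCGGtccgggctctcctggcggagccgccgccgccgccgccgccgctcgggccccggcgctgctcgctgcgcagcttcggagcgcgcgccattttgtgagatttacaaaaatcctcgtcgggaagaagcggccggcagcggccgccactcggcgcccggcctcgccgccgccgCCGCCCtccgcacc
Mark1: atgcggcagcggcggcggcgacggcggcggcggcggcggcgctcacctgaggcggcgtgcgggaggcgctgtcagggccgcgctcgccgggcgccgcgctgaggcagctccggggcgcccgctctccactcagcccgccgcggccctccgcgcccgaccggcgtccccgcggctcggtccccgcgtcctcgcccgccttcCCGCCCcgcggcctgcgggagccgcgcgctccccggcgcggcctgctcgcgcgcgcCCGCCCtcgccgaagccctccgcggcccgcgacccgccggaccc

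The Gsk3b window held 4 CCAAT boxes and no GC box, with 63.0% G or C. That of Gsk3a held 1 of each, with 54.3% G or C. The Dyrk1a window had 4 GC boxes, some of them overlapping, and 77.0% G or C, and the Mark1 window had 2 and 85.7%, which is higher than in 99.9% of all 32851 promoter windows (median 52.7%). A GC box was present in 35.7% of all windows and a CCAAT box in 37.4%. Motifs were also sought on both strands for a cyclic AMP response element (TGACGTCA, in 1.79% of all windows), an AP-1 site (TGANTCA, in 7.81%) and an E-box (CACGTG, in 7.15%). The first stood in the window of Ppp2ca and the AP-1 letters in a downstream window of Mark2, while the E-box was in none of the 11 windows of 7 of the genes. A match to letters is a description and not a binding site.

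Gsk3a (chr7:25228258-25237851, minus strand) was the steadiest of the genes. Its CPM was 186, 195, 189 and 185 in the 4 sham samples and 181 to 215 over all 39. Every injured group overlapped the sham range, and the highest and the lowest sample both came from 5xCHI at 4 h. The SD of its log2 CPM over the 39 samples was 0.059, and only 0.5% of the 1000 features nearest to it in level varied less. Over the 17 comparisons with a fold change, log2 fold changes ran from -0.07 to 0.08, and no 95% confidence interval reached beyond -0.20 or 0.20. When the trend of each library with gene length and GC content was removed, the SD of Gsk3a became 0.141, so this steadiness was seen on the CPM scale only. That removal also raised the SD of Ppp2ca from 0.090 to 0.138 and lowered that of Cdk5 from 0.178 to 0.107. Whether it added spread to Gsk3a was not tested.

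Gsk3b (chr16:38089001-38246084, plus strand) was the least steady of the 10 on the CPM scale, with an SD of 0.278. With the length and GC trends removed its SD was 0.164, below those of Cdk5r1 (0.211) and Mark1 (0.201). Its CPM in sham samples was 169, 174, 229 and 227. At 30 min after 1xCHI it was 121, 141 and 204, at 4 h 144, 133 and 248, and at 24 h 141, 137, 232 and 175. Each of these groups reached from below the sham range into or above it. Against sham, the log2 fold change was -0.26 after 1xCHI (95% confidence interval -0.60 to 0.08, unadjusted p = 0.127, adjusted p = 0.378), -0.19 after 3xCHI and -0.18 after 5xCHI. The largest size was at 30 min after 1xCHI, -0.36 with an interval from -0.80 to 0.08. Among samples 1 to 18 alone, where sham is 1 library, the difference after 1xCHI was -0.32 ± 0.138 (SE), and among samples 19 to 40 it was 0.05 ± 0.135. As a ratio to Gsk3a, Gsk3b CPM ran from 0.596 in sample 13 to 1.32 in sample 36, and the median ratio was 0.788 in samples 1 to 18 and 1.07 in samples 19 to 40.

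Dyrk1a (chr16:94570010-94695517, plus strand) makes a kinase that phosphorylates tau and readies it for GSK3, and the gene is known for its extra copy in Down syndrome. Its CPM in sham samples was 79.0, 77.7, 88.5 and 85.7. After 5xCHI it ran from 62.6 through a median of 77.2 to 86.4. The lowest value was that of sample 11, and 4 of the 10 samples after 5xCHI lay within the sham range. Its log2 fold changes lay between -0.16 and 0.03, with confidence intervals inside -0.39 to 0.22.

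Cdk5 (chr5:24418241-24423530, minus strand) encodes a kinase of neurons that needs the activator p35, the product of Cdk5r1 (chr11:80477023-80481184, plus strand). It was the member with the largest positive differences. Its CPM was 77.0, 71.0, 62.8 and 67.9 in sham samples and 100, 93.7 and 65.3 at 30 min after 1xCHI. Samples 13 and 14 were above every sham sample and sample 27 was within the sham range. This gave a log2 fold change of 0.31 ± 0.130 (SE), with an interval from 0.05 to 0.58, an unadjusted p of 0.0229 and an adjusted p of 0.202. Sample 13 decided much of the size, since without it the value was 0.19, and without sample 27 it was 0.48. Among samples 1 to 18 the difference was 0.32, with 1 sham library, and among samples 19 to 40 it was -0.04 ± 0.148, with 1 injured library (sample 27), so neither is a replicated comparison. With the length and GC trends removed it was 0.41 ± 0.210, and with the sample range as a covariate it was 0.20 ± 0.10.

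After 5xCHI at all times, Cdk5 CPM ran from 67.8 through a median of 78.6 to 94.9 (80.7 ± 9.0, SD, n = 10), against 69.7 ± 5.9 (n = 4) in sham samples. The ranges overlapped. The log2 fold change was 0.21 ± 0.103 (SE), with an unadjusted p of 0.0484 and an adjusted p of 0.479, and it was 0.14 among samples 1 to 18, with 1 sham library, and 0.18 among samples 19 to 40. With the length and GC trends removed it was 0.07 ± 0.164, and with the sample range as a covariate 0.12 ± 0.078. After 1xCHI and 3xCHI the values were 0.20 and 0.21, with intervals that included 0. At 24 h after 5xCHI the 4 samples were 94.9, 91.5, 67.8 and 69.8 CPM, the first pair from samples 1 to 18 and the second from samples 19 to 40.

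Cdk5r1 lay at 243, 273, 341 and 312 CPM in sham samples and at 161, 237, 331 and 315 at 24 h after 5xCHI. Sample 11 was the lowest of all 39 by a wide gap, since the next lowest was 229 CPM. Its log2 fold changes were between -0.22 and 0.05 and no unadjusted p was under 0.241. The ratio of Cdk5r1 to Cdk5 CPM ran from 1.69 in sample 11 to 5.42 in sample 35, a sham sample. Over the 39 samples Cdk5r1 followed the neuron marker sum with a Pearson r of 0.83 (Spearman 0.72) on the log2 CPM of the gene. Sample 11 was the lowest in both, and Mark1 had a similar Pearson r of 0.81. These are descriptions over libraries that share depth and composition.

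Mark1 (chr1:184896789-184999570, minus strand) and Mark2 (chr19:7275396-7341860, minus strand) make kinases that phosphorylate the repeats by which tau binds microtubules. Mark1 CPM was 94.4, 104, 122 and 114 in sham samples and ran from 56.2 through 94.2 to 114 after 5xCHI. The lowest of these was again sample 11. All 17 log2 fold changes of Mark1 were below 0, from -0.24 to -0.03, but each interval included 0, and many of these comparisons share their control samples. Its median CPM was 85.5 in samples 1 to 18 and 104 in samples 19 to 40. Of the 4 sham samples, 3 were among the latter. The smallest unadjusted p was 0.0668 (5xCHI against sham, -0.24 ± 0.126). Mark2 CPM was 90.9, 97.4, 109 and 105 in sham samples and 81.5, 98.7, 99.3 and 100 at 24 h after 5xCHI. Sample 11 lay below the other 3, which were within the sham range. The log2 fold changes of Mark2 ran from -0.15 to 0.09, and the ratio of Mark1 to Mark2 CPM was lowest in sample 11 (0.690).

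Fyn (chr10:39368855-39565381, plus strand) encodes a Src family kinase that phosphorylates tau on tyrosine and meets it at synapses. Its CPM was 102, 100, 109 and 104 in sham samples and 95.5, 82.5 and 103 at 4 h after 1xCHI. Sample 16 was the lowest of all 39, and sample 36 lay within the sham range. The log2 fold change was -0.15 ± 0.071, with an interval from -0.30 to -0.01, an unadjusted p of 0.0420 and an adjusted p of 0.456. Without sample 16 it was -0.07, and without sample 36 it was -0.22. After 1xCHI at all times, Fyn ran from 82.5 through 97.3 to 104 CPM and the log2 fold change against sham was -0.11 ± 0.055, with an unadjusted p of 0.0498 and an adjusted p of 0.298. Among samples 1 to 18, with 1 sham library, these differences were -0.21 and -0.16, and among samples 19 to 40 both were -0.03, the one at 4 h resting on sample 36 alone. With the length and GC trends removed they were -0.04 ± 0.216 at 4 h and 0.03 ± 0.168 over all times.

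Protein phosphatase 2A is built from a scaffold, a catalytic subunit and a regulatory subunit, and the form with the Ppp2r2a product (B alpha) is the one known for acting on tau. Ppp2ca (chr11:52098681-52127778, plus strand) had 343, 358, 368 and 324 CPM in sham samples and 349, 371 and 359 CPM in mice taken 24 h after 4xCHI. After the fifth injury it was 307, 306 and 345 at 30 min, 338, 302 and 338 at 4 h, and 291, 293, 339 and 339 at 24 h. All 10 of these samples were below all 3 taken before the fifth injury, and 5 of them lay within the sham range. The log2 fold change was -0.17 ± 0.073 at 30 min (unadjusted p = 0.0259, adjusted p = 0.780), -0.14 ± 0.073 at 4 h (unadjusted p = 0.0617, adjusted p = 0.929) and -0.19 ± 0.068 at 24 h (unadjusted p = 0.00930, adjusted p = 0.635). These 3 comparisons share the same 3 samples after 4xCHI. With the length and GC trends removed, the values were -0.33 ± 0.232 at 30 min and 0.25 ± 0.218 at 24 h, so the direction at 24 h turned. Without sample 11, which stood apart in its markers, the value at 24 h was -0.15.

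Against sham, Ppp2ca after 5xCHI differed by -0.12 ± 0.053 (320 ± 21.8 CPM, SD, n = 10, against 348 ± 19.1, n = 4), with an unadjusted p of 0.0304 and an adjusted p of 0.473. With the length and GC trends removed it was -0.26 ± 0.166. After 1xCHI the difference was 0.00, with an interval from -0.10 to 0.11. The 5 lowest samples after 5xCHI were samples 7, 8, 10, 11 and 12, all among samples 1 to 18. No sample after 4xCHI was among samples 1 to 18, while the groups after 5xCHI held samples of both ranges. With the range as a covariate, the difference from 4xCHI was -0.13 ± 0.070 at 30 min and -0.16 ± 0.064 at 24 h (unadjusted p = 0.0205, adjusted p = 0.952). Among samples 19 to 40 alone, the difference from 4xCHI was -0.07 at 30 min, from sample 31 alone, and -0.10 at 24 h, and that between 5xCHI and sham was -0.04, while it was -0.16 among samples 1 to 18, with 1 sham library.

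Ppp2r2a (chr14:67014056-67072444, minus strand) was at 82.6, 84.0, 92.9 and 91.1 CPM in sham samples and at 68.7, 63.0 and 92.5 at 4 h after 1xCHI. Samples 15 and 16, both among samples 1 to 18, were the lowest of all 39. Sample 36, among samples 19 to 40, was within the sham range. The log2 fold change was -0.23 ± 0.114, with an interval from -0.46 to 0.00, an unadjusted p of 0.0519 and an adjusted p of 0.479. Without sample 36, the highest of the 3 injured samples, it was -0.41, with an adjusted p of 0.0443, in a fit that called 3.98% of all features in this comparison. The ratio of Ppp2r2a to Ppp2ca CPM ran from 0.189 in sample 16 to 0.293 in sample 26.

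**Figure D2:**
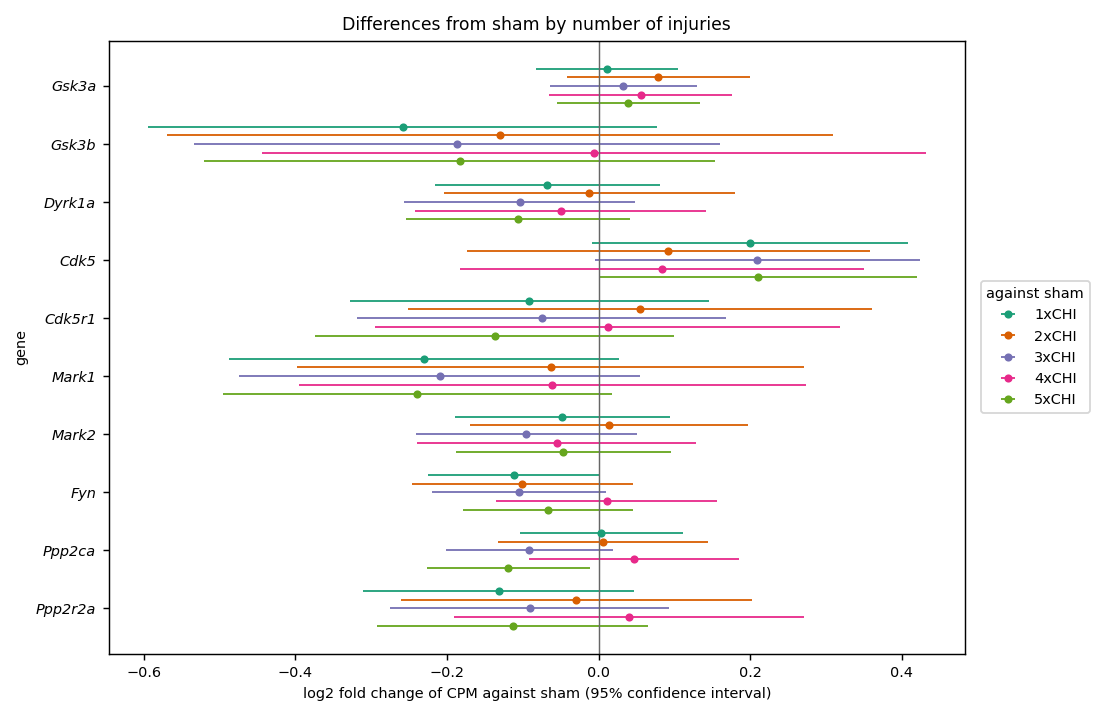
Log2 fold change of each gene (y axis) against sham after 1xCHI to 5xCHI (colours), with 95% confidence intervals as lines (x axis). Cdk5 is the gene whose points all lie at or above 0.08, Mark1 the one whose points all lie at or below -0.06, and every interval crosses 0 except those of Fyn after 1xCHI and of Cdk5 and Ppp2ca after 5xCHI.

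The question put to each injury number was whether any of these genes differed from sham. By edgeR's quasi-likelihood test, 0 of 10 were called after 1xCHI, 2xCHI, 3xCHI, 4xCHI and 5xCHI, as were 0% of all features in each of the 5 comparisons. At an unadjusted p under 0.05, 1 of 10 genes (Fyn) passed after 1xCHI beside 16.7% of all features, and 2 of 10 (Cdk5 and Ppp2ca) after 5xCHI beside 10.3%. After 2xCHI, 3xCHI and 4xCHI 0 of 10 passed, beside 4.46%, 4.89% and 1.62% of all features. The median log2 fold change of the 10 genes against sham was -0.08 for 1xCHI, -0.004 with 2 injuries, -0.09 for 3xCHI, 0.01 with 4 injuries and -0.11 for 5xCHI, where those of all features lay within 0.01 of 0. For 1xCHI, 3xCHI and 5xCHI, the 34 further kinases listed below had medians of -0.12, -0.07 and -0.06. Those of the 20 phosphatase subunits were -0.05, -0.05 and -0.07, and those of the 12 regulators 0.03, 0.01 and 0.02. The groups after 2xCHI and 4xCHI held none of samples 1 to 18. The part of the sample range in these medians was not tested.

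Each time after 1xCHI, 3xCHI and 5xCHI was set against the group taken before that injury. Again 0 of 10 genes and 0% of all features were called in each of these 9 comparisons. Unadjusted, Cdk5 passed at 30 min after 1xCHI (1 of 10, beside 19.7% of all features) and Fyn at 4 h after 1xCHI (1 of 10, beside 10.5%). Ppp2ca passed at 30 min after 5xCHI (1 of 10, beside 6.36%) and at 24 h after 5xCHI (1 of 10, beside 6.44%). No member passed at 24 h after 1xCHI (6.02% of all features), at 30 min (1.88%), 4 h (2%) and 24 h (4.57%) after 3xCHI, or at 4 h after 5xCHI (5.33%).

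Comparing times with each other, 0 of 10 genes were called at 30 min against 24 h, where 0.145% of all features were, and 0 of 10 at 4 h against 24 h, where 0.00657% were. Unadjusted, 0 of 10 passed in both, beside 10.5% and 3.44% of all features. The trend with the number of injuries at 24 h was called for 0 of 10 genes and 0% of features, and unadjusted for 0 of 10 beside 5.78%. In the test for any difference among the 12 groups 0 of 10 were called beside 0.0131% of all features, and 0 of 10 passed unadjusted beside 7.02%. Ppp2ca had the smallest unadjusted p of that test, 0.114. Over the 17 comparisons with a fold change, 7 of 170 gene and comparison pairs had an unadjusted p under 0.05, in 3 genes, beside 7.09% of all feature and comparison pairs, and 0 were called beside 0.00889%. DESeq2 gave 10 such pairs beside 7.49%, and called 0 beside 0.041%.

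**Figure D3:**
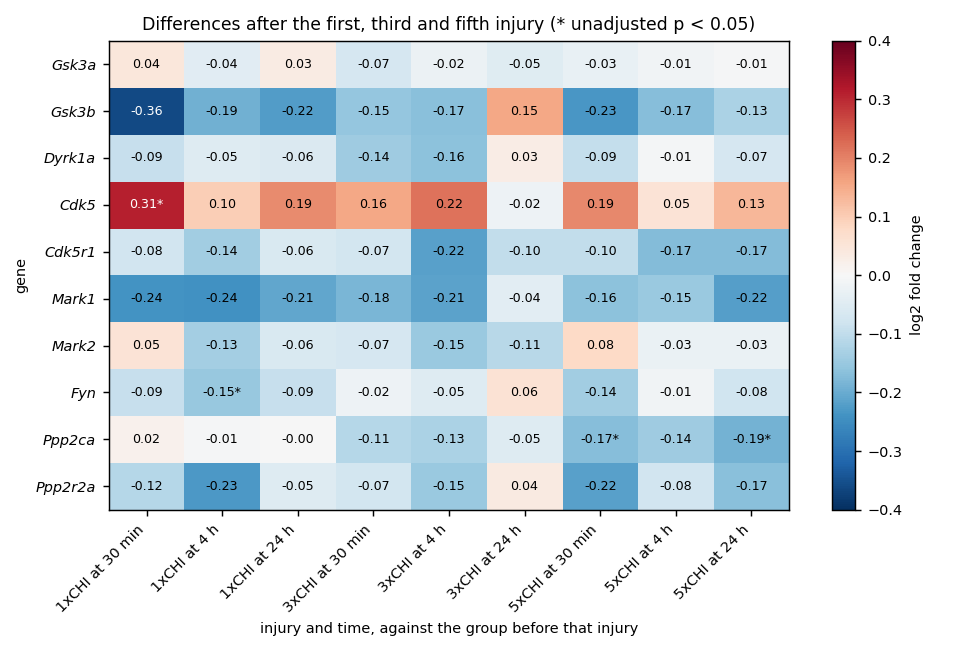
Log2 fold change of each gene (rows) by time after 1xCHI, 3xCHI and 5xCHI against the group taken before it (columns), in colour and printed in each cell; a star marks an unadjusted p under 0.05. The stars stand at Cdk5 (0.31), Fyn (-0.15) and Ppp2ca (-0.17 and -0.19), and Mark1 and Cdk5r1 are below 0 in every column.

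The ranges of single samples gave a second view of the time course. After 1xCHI all 10 genes overlapped with sham at each time, where 8.73%, 5.45% and 5.08% of all features did not overlap. After 3xCHI all 10 overlapped with 2xCHI at 30 min and 24 h (9.73% and 7.51% of features did not), while at 4 h, with 2 samples against 3, 5 genes lay below and Cdk5 above (21.1% of features did not overlap). At 30 min after 5xCHI, Gsk3b, Dyrk1a, Mark1, Fyn, Ppp2ca and Ppp2r2a lay wholly below 4xCHI and Cdk5 wholly above, beside 19.7% of all features. At 4 h and 24 h after 5xCHI, Ppp2ca alone of the 10 lay wholly below, beside 13.2% and 4.64%. Samples 1 to 18 made up 2 of 3 samples at 30 min after 3xCHI, 2 of 2 at 4 h after 3xCHI, 2 of 3 at 30 min and at 4 h after 5xCHI and 2 of 4 at 24 h after 5xCHI, and the groups before those injuries hold none.

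Pairs of these genes moved together or against each other across libraries. Over the 39 samples, Gsk3b had a Pearson r of 0.85 with Mark1 and 0.85 with Ppp2r2a on log2 CPM, and -0.89 with Cdk5. Of 45 pairs, 8 had an r over 0.7 and 4 an r under -0.7, and each of those 4 pairs Cdk5 with another member. The share of all feature pairs with such an r was not counted, and the leading axis of variation held 30.5% of the variance of all features. Within samples 1 to 18 the counts were 2 and 0, within samples 19 to 40 they were 8 and 5, and without sample 11 they were 10 and 4. After the trends with gene length and GC content were removed from each library they were 7 and 0. Gsk3b with Cdk5 was then -0.61, and Gsk3b with Gsk3a, which had an r of 0.23 on log2 CPM, was 0.84. Gsk3a with Mark1 likewise went from 0.33 to 0.87, while Gsk3a with Ppp2ca went from 0.29 to -0.45. Whether the removal itself put a shared part into the genes was not tested. All these r values are descriptions over libraries that share groups, depth and base composition.

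**Figure D4:**
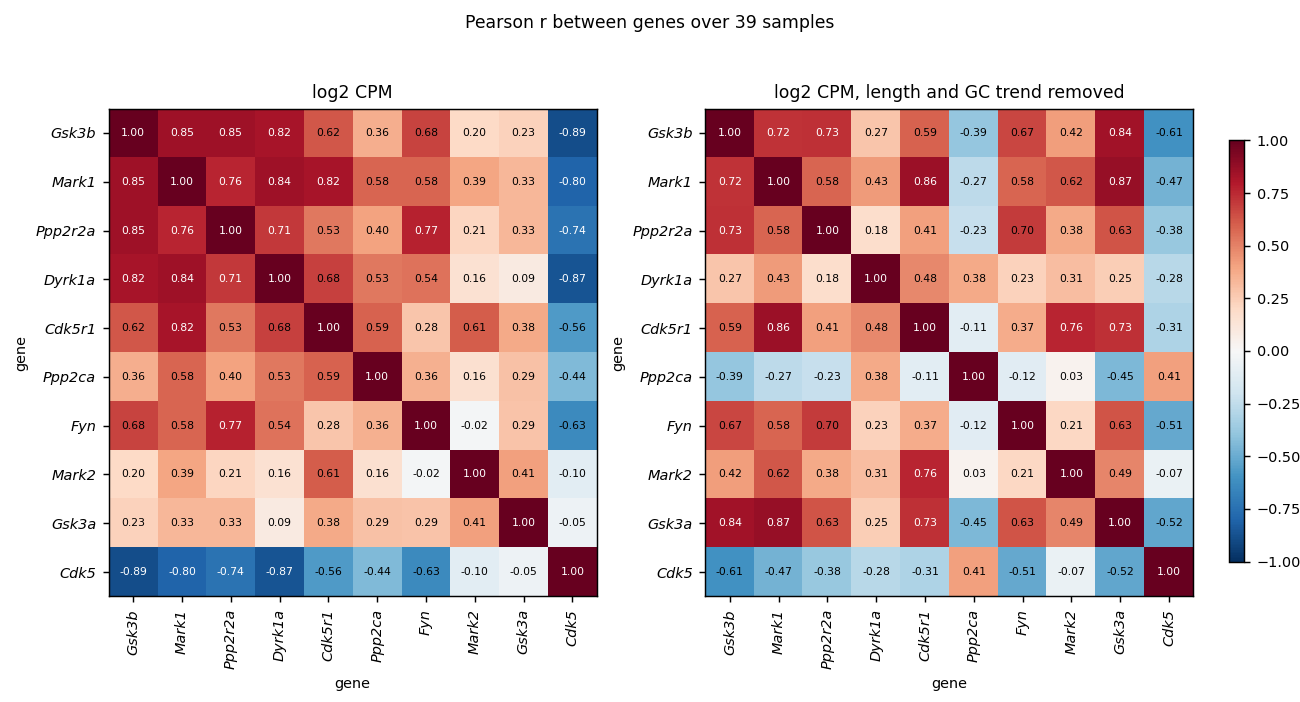
Pearson r between each pair of genes over 39 samples (rows and columns, values in the cells), on log2 CPM at left and after removal of each library's length and GC trend at right. Cdk5 is negative with all 9 other genes at left, down to -0.89 with Gsk3b, and 0 pairs are under -0.7 at right.

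The same split was seen when libraries were described by how their CPM depended on transcript length. The length slope of a library is the change in log2 CPM per doubling of transcript length, relative to the mean of all samples. Gsk3b followed it with an r of 0.90, Mark1 with 0.86 and Dyrk1a with 0.81, while Cdk5 had -0.87 and Gsk3a 0.10. The longest transcript of Gsk3b has 8303 bases, that of Cdk5 2059 and that of Gsk3a 2260, but Ppp2ca, with 7102 bases, had an r of 0.24. Gsk3b also had an r of -0.76 with the percent of counts on mitochondrial genes, and Cdk5 one of 0.65.

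Between the ranges of sample numbers, median Gsk3b was 148 CPM in samples 1 to 18 and 204 in samples 19 to 40. For Cdk5 the medians were 84.6 and 70.0 CPM, for Mark1 85.5 and 104, for Cdk5r1 264 and 303, and for Gsk3a 192 and 193. In the 9 groups with samples of both ranges, Cdk5 was higher in every sample of the first range in 8. Gsk3b and Cdk5r1 were lower in every such sample in 7 groups, and Ppp2r2a was lower in 7 and higher in 2. How many of all features separate in this way was not counted. Each of these groups holds few samples of either range, so a full separation can easily arise by chance. These counts therefore do not show that the ranges differ more in these genes than in others. The log2 difference between the ranges (first minus second) was 0.25 for Cdk5, at the 84.0th percentile of all features, and -0.41 for Gsk3b, at the 3.63rd percentile.

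**Figure D5:**
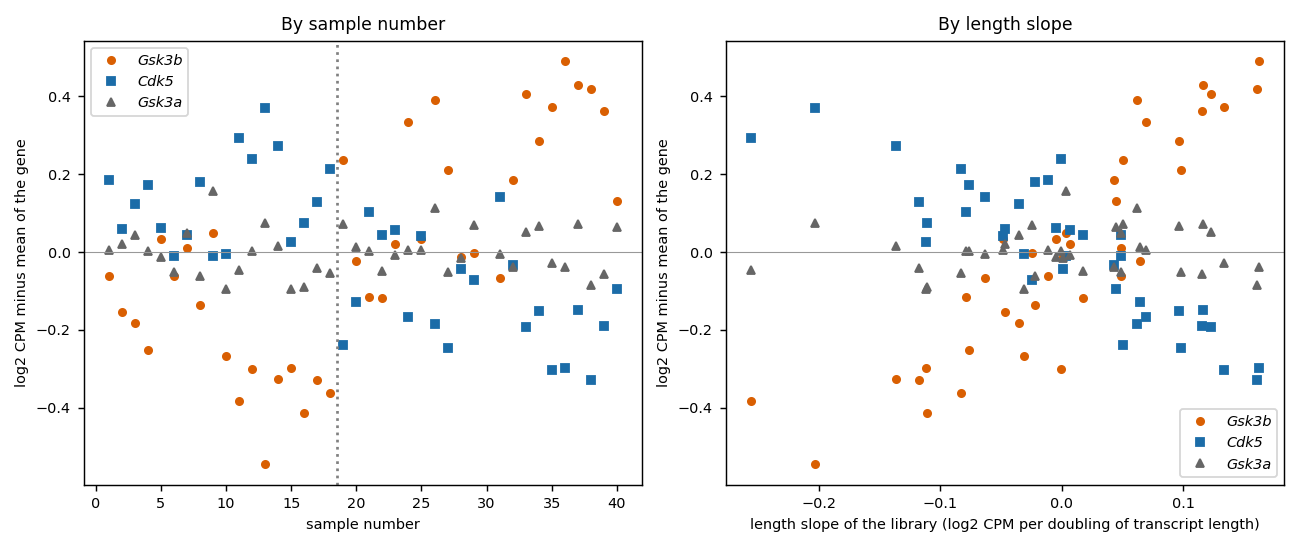
Log2 CPM of Gsk3b, Cdk5 and Gsk3a minus the mean of the gene (y axis) by sample number (left, with a dotted line between samples 18 and 19) and by the length slope of the library (right); each point is 1 of 39 samples. Gsk3b climbs and Cdk5 descends along the length slope (r = 0.90 and -0.87), and Gsk3a stays flat (r = 0.10).

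For each gene, the feature with the most similar log2 CPM over the 39 samples was found among all that were tested. For Gsk3b it was Akap11 (r = 0.97), for Mark1 Plcb1 (0.95), for Cdk5 Drap1 (0.93), for Cdk5r1 Spats2l (0.92), for Dyrk1a Caprin1 (0.91), for Ppp2ca Dnaja1 (0.90), for Ppp2r2a Rnf14 (0.90), for Fyn Grm3 (0.84) and for Mark2 Cbx6 (0.78). For Gsk3a it was Ppp2r1a, the scaffold subunit of phosphatase 2A, and the r of 0.66 was the lowest of these.

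Other genes of tau phosphorylation were counted as lists of 34 further kinases, 20 phosphatase subunits and 12 regulators, with mouse Mapt, which encodes tau itself. All 67 passed the filter and 0 were called in any of the 18 comparisons. In the test over 12 groups, 3 had an unadjusted p under 0.05, beside 7.02% of all features. By edgeR's test these were Abl1, a tyrosine kinase of tau (unadjusted p = 0.0183, adjusted p = 0.605), Akt1, the kinase that restrains GSK3 (0.0288 and 0.656), and Ppp2r2d, another B subunit of phosphatase 2A (0.0255 and 0.639).

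Abl1 had 54.6 ± 1.99 CPM (SD, n = 4) in sham samples, 45.8 ± 1.21 (n = 4) at 24 h after 1xCHI and 42.2 ± 1.1 (n = 3) at 24 h after 2xCHI. At 24 h after 3xCHI it had 52.7 ± 4.51 (n = 4). Its samples after 2xCHI lay between 41.2 and 43.4 CPM, below the sham samples at 52.4 to 57.2, and 8.37% of all features did not overlap in this comparison. The log2 fold change of 2xCHI against sham was -0.37 ± 0.091, with an unadjusted p of 0.000273 and an adjusted p of 0.956, and that of 3xCHI at 24 h against 2xCHI, which shares those 3 samples, was 0.32 ± 0.091 (adjusted p = 0.943). Akt1 ran from 116 to 127 CPM at 4 h after 1xCHI and from 133 to 138 in sham samples, a log2 fold change of -0.16 ± 0.062 with an adjusted p of 0.391. At 24 h after 5xCHI it had 149.7 ± 8.35 CPM (n = 4, from 141 to 161), and its slope with the number of injuries at 24 h was 0.02 log2 units per injury (unadjusted p = 0.0303, adjusted p = 0.857).

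Ppp2r2d differed by -0.13 ± 0.045 after 5xCHI against sham (unadjusted p = 0.00846, adjusted p = 0.463). Among the phosphatases, Ptpn5, the striatal-enriched tyrosine phosphatase that acts on Fyn, had 177 ± 12.0 CPM in sham samples and 207 ± 33.2 (n = 3) at 30 min after 1xCHI, with overlapping ranges. Lcmt1, which methylates the catalytic subunit of phosphatase 2A, had 46.4 ± 2.39 and 56.9 ± 10.6 CPM in the same groups (log2 fold change 0.30 ± 0.093, adjusted p = 0.167). Set, which makes an inhibitor of that phosphatase, had a p of 0.0900 over the 12 groups. Mapt had 584 ± 25.4 CPM in sham samples and 640 ± 63.9 at 30 min after 1xCHI, a log2 fold change of 0.13 ± 0.062 with an adjusted p of 0.243.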

How the data were processed

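RNA of 40 female 3xTg-AD left somatomotor cortices was extracted with a Qiagen kit, and a company sequenced it, aligned it and made the count matrix. The authors deposited estimated counts per gene, neither normalized nor filtered, and 4.46% of the values lay more than 0.000001 from a whole number. The submitters' processing notes name the build mm10, the gene identifiers are those of GENCODE M21, and the column names follow the style of salmon's gene-level output. Its version and any aligner are not given in the sources used here.

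Counts were rounded to whole numbers. A feature was kept if at most 4 of the 39 samples used had a count under 10, which left 15224. Differences were tested with edgeR 4.0.16 (TMM scaling, quasi-likelihood test, 12 groups in 1 fit) in R 4.3.3, and Benjamini-Hochberg adjustment ran over all 15224 features, with a call at an adjusted p under 0.05. Fold changes are on the log2 scale, and log2 CPM used a prior count of 1. A member's fold change is given by comparison where its unadjusted p was under 0.05, with a few others shown for context after their values were seen, and otherwise by its range. Of the wider lists, the pair of genes per list with the smallest p over the 12 groups is named. The members and lists were chosen with earlier results of these data known, and the promoter motifs after the sequences could be seen. The code was tested on simulated data.

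A chi-square test of the counts of every 2 samples of a group (46 pairs) found no 2 alike within sampling noise, with at least 6.85 per gene. The p-values measure the spread between samples, 1 from each animal as far as the study says. Alternatives were DESeq2 1.42.0, library size scaling, other filters, all 40 samples, only the compared groups, and 6 groups with time points combined. Further ones were sample number and sample range as covariates, each sample range alone, and leaving out each replicate. Trends with length and GC were also removed, by natural splines fitted to each library. Promoter sequences are from RefSeq (GRCm38.p6), in which 7 of the 10 genes had an entry. Cdk5, Cdk5r1 and Ppp2r2a were the others.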

Additional observations from a re-analysis of the deposited data

Results flagged for a closer look

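Mark2 in sample 11 (5xCHI at 24 h) was at 81.5 CPM, while the other 3 samples of the group were at 98.7 to 100 CPM. On log2 CPM, its gap to the nearest of these was 0.934 of the group's whole range, past Dixon's 95% critical value for 4 samples. It was the 1 value that stood out in this way among 40 sets of 4 samples (10 genes in the 4 groups of 4), and chance flags about 1 in 20. In the same sample, the neuron marker sum was 4771 CPM and the microglia marker sum 608 CPM, and their part in the Mark2 value was not tested.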

How the results depend on the processing

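Under 12 alternatives that left out no single sample and 39 fits that each left out 1, the members gave 3570 gene and comparison values, of which 3267 (91.5%) had the sign of the reported fit. An adjusted p under 0.05 was reached by 2 of them. At 30 min after 1xCHI, the number of members called ran from 0 to 1 over the fits that left out a sample, the 1 being Cdk5 without sample 27 (0.48, adjusted p = 0.0148), where 23.6% of all features were called. At 4 h after 1xCHI it also ran from 0 to 1, the 1 being Ppp2r2a without sample 36 (-0.41, adjusted p = 0.0443), where 3.98% of all features were called. Among the values with an unadjusted p under 0.05, the direction turned for 3. Cdk5 at 30 min after 1xCHI was -0.040 in samples 19 to 40 alone, where the injured group is 1 library, Fyn after 1xCHI against sham was 0.033 with length and GC trends removed, and Ppp2ca at 24 h after 5xCHI was 0.25 with these trends removed (adjusted p = 0.757), so its sign depends on that choice. The cause was not tested.

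Leaving out 1 sample at a time moved Cdk5 after 5xCHI from 0.16 to 0.25, Fyn after 1xCHI from -0.14 to -0.09 and at 4 h from -0.22 to -0.07, and Ppp2ca after 5xCHI from -0.15 to -0.09 against sham, from -0.23 to -0.14 at 30 min and from -0.22 to -0.15 at 24 h. The lowest count of any member was 1169, and groups held 2 to 4 samples. No paired analysis was possible because the labels give each sample a number of its own.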
